A study of Mus musculus with 3 samples.

Results

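Among 23988 TRα1 binding sites of adult mouse striatum, 4139 lay in intergenic sequence far from the 5′ ends of protein-coding genes. These distal intergenic sites, or 17.3% of the list, were chosen by position only: the summit of the peak lay outside every protein-coding gene body and more than 50 kb from the nearest 5′ end of a protein-coding gene, in GENCODE annotation of GRCm38. The thyroid hormone receptor TRα1, encoded by Thra, had been immunoprecipitated with its DNA (ChIP-seq) from the striatum of adult male C57BL/6J mice with the thyroid status given as euthyroid, no treatment, and an age of 8 without a unit. The receptor carried a GS tag and was expressed only in GABAergic neurons, from a floxed construct, so that the sites are those of the tagged receptor in these cells. What drives its expression there was not named in the labels. The series held 2 ChIP libraries and 1 input library, but 1 peak list, so that no replicates were compared. Sites of a single list are not replicates of animals. All p-values and intervals given here, which are at 95% (Wilson for shares, exact Poisson for densities), cover counting error over sites only, and the depth of the libraries was not analysed here.

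Thyroid hormone receptors bind DNA as heterodimers with retinoid X receptors, on pairs of the half-site AGGTCA. The arrangement that favours these heterodimers is the DR4, in which both half-sites point the same way with 4 bases between them. Distal enhancers are regulatory elements that can act on promoters over long stretches of DNA, and in neurons they carry motifs of factors such as AP-1, MEF2 and the homeodomain proteins. A peak list gives occupancy and no expression, so the gene nearest to a site is given as a landmark and not as its target.

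The DR4 was searched on both strands within 100 bp of the summit, and a match could differ from it in up to 2 of the 12 bases outside the spacer. In 19 distal intergenic sites the match had no mismatch. The 10 of these with the highest fold enrichment are shown because they are the clearest receptor elements of the class, named by the nearest protein-coding gene and written 5′ to 3′ on the strand of the element with 8 flanking bases, the half-sites in capitals and the coordinates being those of the element in GRCm38.
Kif20b, chr19:35276432-35276447, plus strand: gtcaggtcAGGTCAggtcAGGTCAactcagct
Phtf2, chr5:20744498-20744513, minus strand: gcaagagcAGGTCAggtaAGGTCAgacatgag
Mn1, chr5:111482211-111482226, minus strand: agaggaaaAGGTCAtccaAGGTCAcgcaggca
Ubash3b, chr9:41273197-41273212, minus strand: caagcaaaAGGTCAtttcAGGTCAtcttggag
Mkln1, chr6:31260140-31260155, plus strand: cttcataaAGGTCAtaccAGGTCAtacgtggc
Dio2, chr12:90903065-90903080, minus strand: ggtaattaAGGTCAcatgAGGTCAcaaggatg
Aqp9, chr9:71067981-71067996, plus strand: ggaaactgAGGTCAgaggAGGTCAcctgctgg
Eef2kmt, chr16:5313454-5313469, minus strand: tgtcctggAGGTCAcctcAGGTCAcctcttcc
Psat1, chr19:15818601-15818616, plus strand: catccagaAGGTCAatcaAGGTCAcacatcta
Plppr4, chr3:117301214-117301229, plus strand: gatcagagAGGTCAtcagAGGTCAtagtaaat

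The fold enrichment is the pileup of ChIP fragments at the summit divided by the background that MACS estimated around it, each plus 1. It was 20.1 at the site nearest to Kif20b, a mitotic kinesin gene, and it was 15.6 at Phtf2, 15.2 at Mn1 and 14.5 at Ubash3b. It was 11.3 near Mkln1, 9.25 near Dio2, 7.81 near Aqp9, an aquaglyceroporin gene, 7.56 near Eef2kmt, 7.44 near Psat1, an enzyme of serine synthesis, and 7.03 near Plppr4. Over all 19 sites it ranged from 4.95 to 20.1, with a median of 7.03, so that a DR4 without mismatches did not mark the strongest sites. The site near Dio2 lay 164653 bp from the 5′ end of that gene, which encodes the deiodinase that turns thyroxine into active T3. Its summit was 18 bp from the centre of the element, and the pileup was 24 fragments.

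The 3 distal intergenic sites of highest fold enrichment with a DR4 had 2 mismatches each and are shown for contrast, in the same notation, since they are among the strongest sites of the class.
Kcnt2, chr1:141831582-141831597, minus strand: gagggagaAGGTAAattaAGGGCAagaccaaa
Nup35, chr2:80729562-80729577, plus strand: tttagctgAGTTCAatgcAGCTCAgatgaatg
1810013L24Rik, chr16:9030664-9030679, plus strand: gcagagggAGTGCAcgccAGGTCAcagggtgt

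The element near Kcnt2, a sodium-activated potassium channel gene, lay in a site with a fold enrichment of 78.8. The element near Nup35, a nucleoporin gene, lay in a site at 57.4, and that near 1810013L24Rik in a site at 57.3. In the last of these both mismatches fell in the upstream half-site.

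A DR4 was present in 566 of the 4139 distal intergenic sites, or 13.7% (12.7 to 14.8), beside 13.1% of the whole list. In flanks of the same size, taken 5 kb to the right of each summit, it was present in 95, or 2.30% (1.88 to 2.80). The element was therefore 5.96 times as frequent at the summit as in the neighbouring sequence, with 555 pairs where only the site had it and 84 where only the flank did (exact McNemar test, two-sided, p = 4.74e-86, adjusted over the 6 main tests 2.84e-85). With at most 1 mismatch the share was 2.80% at the summit, in 116 sites, and 0.0725% in the flank, in 3 windows. Most distal intergenic sites, on the other hand, had no such match in this window.

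The share was compared with that of the distal intragenic sites, the most alike class, whose 4806 summits lay inside a protein-coding gene body and equally more than 50 kb from a 5′ end. These carried a DR4 in 16.5% (15.4 to 17.5). The distal intergenic sites were lower by 2.78 percentage points, as the difference of -2.78 had an interval of -4.26 to -1.297 (Fisher's exact test, p = 2.75e-04, adjusted p = 4.13e-04). Of 11 alternatives, 9 kept the call of this difference and 2 did not. Among sites with 40 to 55% GC it was -1.85 points, with an interval of -3.67 to -0.00797 (Fisher's exact test, p = 0.0509). Among sites scored 200 or more by MACS, a scale of 10 times −log10 q, it was -0.277 points. The interval there was -3.30 to 2.78 (Fisher's exact test, p = 0.878). Both intervals include the main value of -2.78. Against all 19849 other sites, 13.03% of which had a DR4, the difference was 0.641 points with an interval of -0.478 to 1.82 (Fisher's exact test, p = 0.266, adjusted p = 0.266). Within 40 to 55% GC this difference changed sign, to -1.59 points (Fisher's exact test, p = 0.0451). Promoter sites, within 1 kb of a 5′ end, had the element in 6.35% of cases.

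**Figure D1:**
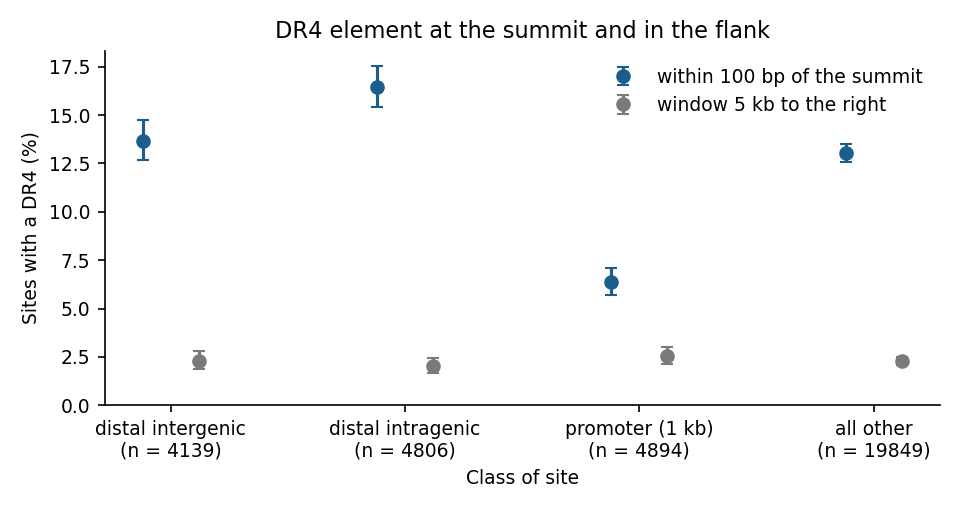
Share of sites with a DR4 (y axis, %) within 100 bp of the summit and in the window 5 kb to the right, for 4 classes of site (x axis), with 95% Wilson intervals. The distal intergenic sites sit at 13.7% against 2.30% in the flank, between the distal intragenic sites (16.5%) and the promoter sites (6.35%).

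The elements were centred on the summits. In the 50-bp bin around the summit 6.55% of the distal intergenic sites had a DR4, against 3.33% in the bins 50 bp to either side. In the bins centred 250 to 550 bp away on either side the share was between 0.483 and 0.773%. The median distance between the centre of the best element and the summit was 27 bp. In 271 of the 566 sites (47.9%) it was at most 25 bp. The share of sites with a DR4 also went up with fold enrichment. When the sites were split by fold enrichment into 5 groups of nearly equal size (quintiles), the share in the lowest quintile, from 1.70 to 5.58, was 7.85% (6.21 to 9.88), then 11.2, 12.8 and 17.4% in the next 3 quintiles. In the highest quintile, from 11.8 to 123, it was 19.1% (16.6 to 21.9). The highest and lowest quintiles differed by 11.3 points (8.01 to 14.5; Fisher's exact test, p = 1.29e-11, adjusted p = 3.88e-11). The flank share stayed between 2.05 and 2.90% across the quintiles. The median GC content moved along, from 43.3 to 47.3%, and among sites with 40 to 55% GC the difference was 9.91 points. With at most 1 mismatch it was 1.21 points (Fisher's exact test, p = 0.146), and among sites scored 200 or more 6.52 points (Fisher's exact test, p = 0.0922).

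**Figure D2:**
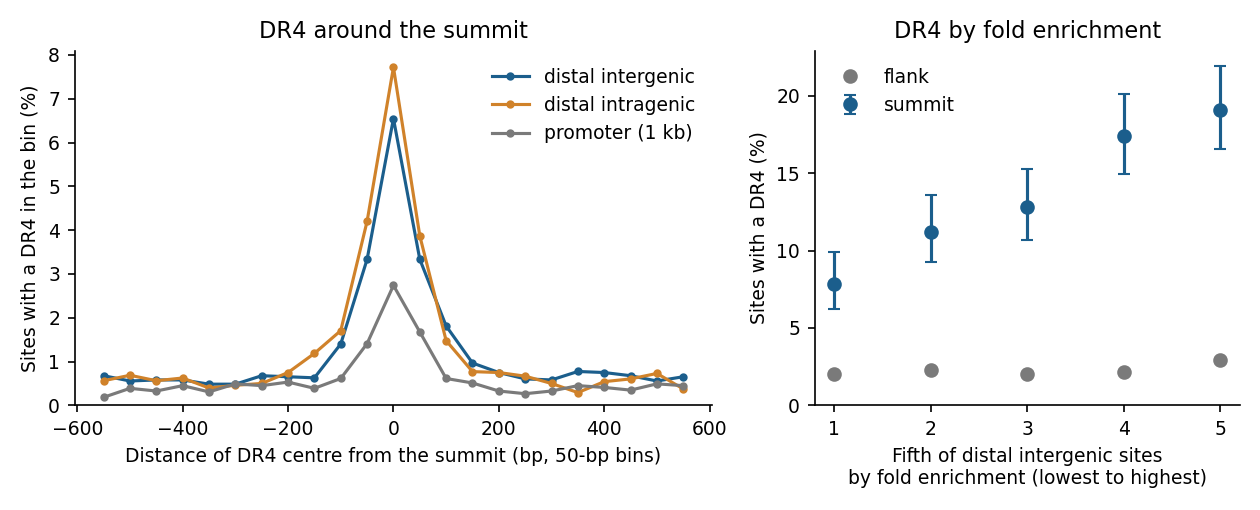
Left, share of sites (y axis, %) with a DR4 whose centre falls in each 50-bp bin (x axis, distance from the summit in bp), for distal intergenic, distal intragenic and promoter sites. Right, share of distal intergenic sites with a DR4 (y axis, %) in each quintile of fold enrichment (x axis), with 95% Wilson intervals, and the share in the flank; the summit share goes from 7.85% to 19.1%.

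The letters of the elements were examined without a test, and these quantities were chosen after their values were seen. Over the 566 best elements of the distal intergenic sites, the upstream half-site was intact in 112, or 19.8% (16.7 to 23.3), and the downstream half-site in 147, or 26.0% (22.5 to 29.7). In the 2587 elements of all other sites the upstream half-site was intact in 28.1% (26.4 to 29.9) and the downstream in 27.1% (25.4 to 28.8). The third base of the spacer was T in 56.5% of the distal intergenic elements and in 48.0% of the others. The base just before the upstream half-site was G in 36.4% and A in 31.1%, and T in 12.2%. In the downstream half-site, the second base was the most constant, with G in 97.9%, and the fourth the least, with T in 69.4%.

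The other arrangements of the half-site were searched in the same way. Of 11 arrangements, 4 were more frequent at the distal intergenic summits than in the flanks (exact McNemar test, adjusted over the 11). The DR4 came first, at 5.96 times, with an adjusted p of 5.21e-85. The IR0, in which the half-sites face each other without a gap, was found in 1.33% of sites against 0.676% of flanks (exact test, adjusted p = 0.00989). The DR5, with 5 bases between the half-sites and known from retinoic acid receptors, was found in 3.41% against 1.79% (exact test, adjusted p = 2.29e-05). The DR8 was found in 3.09% against 1.81% (exact test, adjusted p = 8.31e-04). The DR1, bound by several RXR heterodimers, was at 2.44% against 2.39% (exact test, adjusted p = 1.00), and the DR3, known from the vitamin D receptor, at 2.56% against 1.86% (adjusted p = 0.0771). At least 1 intact half-site was present in 16.5% of the distal intergenic sites, 20.7% of the distal intragenic sites and 18.02% of all other sites.

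For other factors, exact matches to a motif were sought on both strands of the same windows. Of 21 motifs, 8 were more frequent at the distal intergenic summits than in their flanks and 1 was less frequent (exact McNemar test, adjusted over the 21). The AP-1 motif TGANTCA, the site of Fos and Jun dimers, was found in 643 sites, or 15.5%, against 6.26% of the flanks, 14.1% of the distal intragenic sites and 10.6% of all other sites. Both the AP-1 motif and the DR4 were present in 74 sites, only the AP-1 motif in 569 and only the DR4 in 492, which leaves 3004 sites, or 72.6%, with neither. The median fold enrichment was 8.34 with the DR4 only, 7.44 with AP-1 only, 7.81 with both and 6.69 with neither.

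The motif TGACAG of the MEIS homeodomain proteins, which are expressed in striatal neurons, was found in 22.1% of the distal intergenic sites, against 12.6% of the flanks, 23.1% of the distal intragenic and 18.2% of all other sites. The E-box CAGCTG, a site of basic helix-loop-helix proteins, was at 12.2% against 7.39% in the flank, and the E-box CACGTG at 3.53% against 2.17%. The MEF2 motif, of a family of activity-dependent neuronal factors, was at 0.991% against 0.290%. The motif CCANNAGGNGGC of CTCF, the insulator protein, was found in 18 sites, or 0.435%, against 0.0966% of flanks. The RFX motif GTTNCCNNGGNAAC was found in 12 sites and 1 flank. The GC box GGGCGG, bound by Sp proteins, was at 6.16% against 1.45% of the flanks (exact McNemar test, adjusted p = 2.71e-30). The motif that was less frequent at the summits was TGTTTAC of forkhead proteins, at 1.35% against 2.68%. The homeobox motif TAATTA was at 7.13% in both. The flanks were not matched to the summits for GC content. Its median was 45.3% at the summits, beside 39.9% over distal intergenic sequence, and its part in these motif differences was not tested.

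Against the distal intragenic sites, 0 of the 21 motifs passed the test (Fisher's exact test, adjusted over the 21), and 0 had an unadjusted p under 0.05. The NFI and REST motifs were found in neither class, so their tests could not pass. Rare motifs such as EGR, in 3 distal intergenic sites, could show only a large difference. The difference nearest to the threshold was that of AP-1, at 1.39 points with an interval of -0.0891 to 2.87 (Fisher's exact test, p = 0.0685). Against all other sites 6 were more frequent and 7 less frequent. The GC box was at 6.16% in the distal intergenic and 20.7% in all other sites (Fisher's exact test, adjusted p = 3.00e-129), and 52.8% of promoter sites had it. The ETS motif CCGGAAG was at 0.749% against 3.36% and the NRF1 motif GCATGCGC at 0.266% against 0.982%. AP-1, MEIS, homeobox, POU (ATGCAAAT, 2.08% against 1.29%), SOX (AACAATGG, 0.797% against 0.489%) and TEAD (GGAATG, 11.2% against 9.79%) were the 6 on the other side. Of these, only AP-1 and MEIS were also more frequent than in the flanks. The flanks had POU in 1.86%, SOX in 1.23% and TEAD in 10.6% (exact McNemar test against the summits, adjusted p = 0.717, 0.132 and 0.598).

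**Figure D3:**
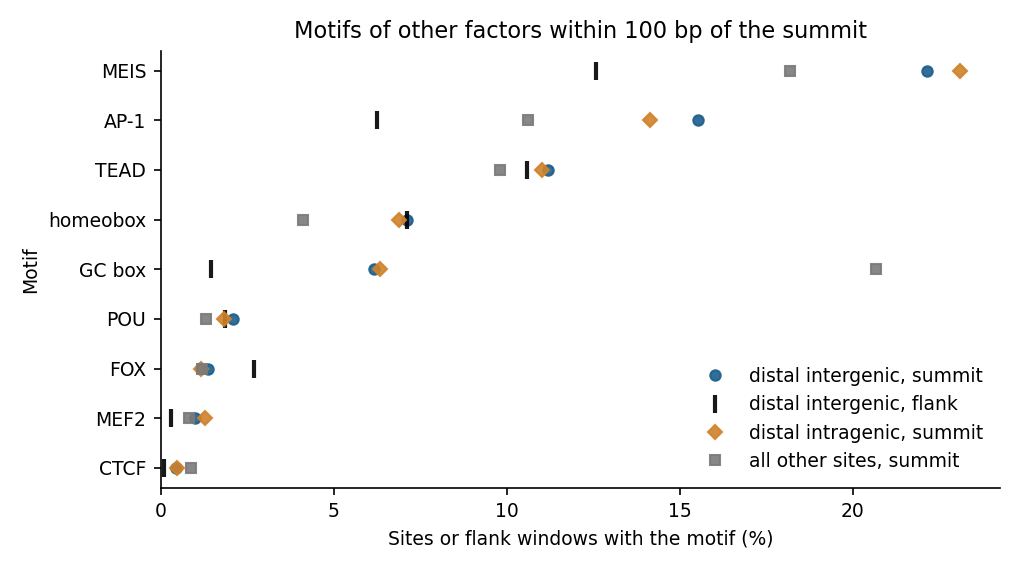
Share of sites or flank windows (x axis, %) with each of 9 motifs (y axis) at the summits of distal intergenic, distal intragenic and all other sites, and in the flanks of the distal intergenic sites. The distal intergenic and distal intragenic points lie close together for each motif, whereas the GC box is at 6.16% against 20.7% in all other sites.

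The distal intergenic sites were spread thinly. The sequence that met the rule amounted to 1086 Mb, or 41.0% of the sequenced genome, and held 3.81 sites per Mb (3.70 to 3.93). The distal intragenic sequence, 475.1 Mb, held 10.1 sites per Mb (9.83 to 10.4), and all sequence outside the class 12.7 per Mb. The classes also differed in their repeats, since 43.0% of the distal intergenic and 27.7% of the distal intragenic bases were repeat-masked in the reference. In unmasked sequence alone the densities were 5.83 per Mb (5.65 to 6.03) and 12.6 per Mb (12.2 to 12.9), and in masked sequence 1.14 and 3.74 per Mb. How much of either genome class can be aligned uniquely was not tested.

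The density went down with the distance to the nearest 5′ end. It was 5.53 per Mb between 50 and 100 kb (1199 sites), 4.54 between 100 and 200 kb (1141 sites) and 3.61 between 200 and 500 kb (1251 sites). Between 500 kb and 1 Mb it was 2.16 per Mb (405 sites), and beyond 1 Mb 1.72 per Mb (1.45 to 2.03; 143 sites). The share of sites with a DR4 showed no such order, with 13.2, 14.4, 13.9 and 13.3% in the first 4 bins and 11.2% (7.01 to 17.4) in the last, intervals that all overlapped. The median fold enrichment was 7.07 in the nearest bin and 5.95 beyond 1 Mb, and the median GC content 48.3% and 40.3%. The median distance over all members was 170394 bp and the largest 2432149 bp. The summit was upstream of the nearest gene in 54.9% of cases.

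**Figure D4:**
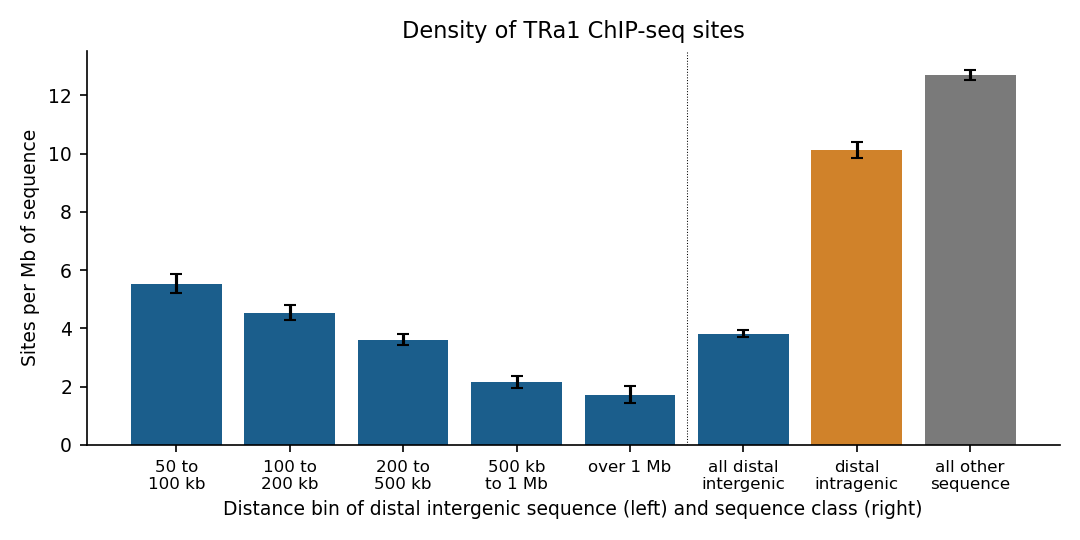
Sites per Mb of sequence (y axis) in 5 bins of distance from the nearest 5′ end within the distal intergenic sequence, and in the distal intergenic, distal intragenic and all other sequence as a whole; bars are densities and whiskers exact 95% Poisson intervals. The density goes from 5.53 to 1.72 per Mb across the bins, against 10.1 per Mb in distal intragenic sequence.

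Over the 19 autosomes the density of distal intergenic sites ranged from 3.36 per Mb on chromosome 7 to 6.55 per Mb on chromosome 9, and on each of the 19 it was lower than that of the distal intragenic sites of the same chromosome. On chromosome X, present once in males, it was 1.02 per Mb (0.811 to 1.26). Distal intragenic sequence of that chromosome held 2.55 per Mb and all other sequence 3.20. Whether copy number accounts for the low densities on chromosome X was not tested. Chromosome Y held 2 of the sites.

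The members nearest to the distance limit were unlike among themselves. The 3 members just inside it, near Gpr135, Acot11 and Rbm46, lay 50053, 50086 and 50093 bp from the 5′ end, with fold enrichments of 17.9, 19.0 and 6.32. The 3 intergenic sites just outside, near Rsl24d1, Derl1 and Pdia4, lay at 49939, 49932 and 49919 bp, with 6.74, 13.2 and 3.16.

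Far from the 5′ ends of coding genes did not mean far from every gene. The rule set no distance from the 3′ end of a coding gene. The member at chr12:107909170-107909627, for example, had its summit at position 107909326, and the body of Bcl11b began at 107910403. The summit lay in the body of a gene that is not protein-coding in 689 distal intergenic sites, or 16.6% (15.5 to 17.8), while such bodies made up 11.1% of the eligible sequence. Long intergenic noncoding RNA genes (lincRNA) accounted for 501 of them and processed transcripts for 90. Within 1 kb of the 5′ end of such a gene lay 231 sites, or 5.58% (4.92 to 6.32), against 2.19% of the sequence. These 231 sites had a median fold enrichment of 7.07 and a DR4 in 15.2%, beside 6.97 and 13.6% in the remaining 3908. Examples with high fold enrichment were the sites 125 bp from the start of the lincRNA gene 4632428C04Rik, at 43.8, where Hes1 was the nearest coding gene, and 147 bp from the start of Gm30806, at 38.1, where Ebf2 was. The strongest lay 85 bp from the start of Gm24022, annotated as a miRNA gene, at chr12:113423757-113425696, with a fold enrichment of 52.2. When bodies and 5′ ends of all annotated genes were used in place of those of coding genes, 1441 sites met the rule.

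The heights of the distal intergenic peaks were lower than elsewhere, but by little. The median fold enrichment was 7.003 (quartiles 5.72 and 10.4), against 7.15 in distal intragenic and 7.44 in all other sites. Above the median of the list, which 49.9% of all sites exceeded, lay 45.3% of the distal intergenic, 48.2% of the distal intragenic and 50.8% of all other sites. The differences were -2.88 points (-4.95 to -0.808; Fisher's exact test, p = 0.00654, adjusted p = 0.00785) and -5.47 points (-7.13 to -3.80; p = 1.61e-10, adjusted p = 3.23e-10). Among sites scored 200 or more, shares were taken above the median of these sites and not of the list. The differences there were 0.689 and 0.0751 points (Fisher's exact test, p = 0.750 and 0.974). The score filter also acts on the height compared, so these values do not speak for the whole class. With a limit of 30 kb the difference to the intragenic sites was -1.48 points (p = 0.117, same exact test).

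Other features of the distal intergenic peaks were compared by the share of sites above the list median. The peak length exceeded 422 bp in 41.1%, against 44.6% of distal intragenic and 51.8% of all other sites (Fisher's exact test, adjusted p = 0.00108 and 1.04e-35). The pileup exceeded 21 fragments in 43.2%, against 44.8% (Fisher's exact test, adjusted p = 0.124; difference -1.62 points, -3.68 to 0.440) and 50.2%. The GC content within 100 bp exceeded 50.7% in 23.8% of the distal intergenic sites, 27.7% of the distal intragenic and 53.2% of all other sites. The median window had 2 CpGs, as in the distal intragenic sites, whereas promoter windows had 17. The repeat-masked share was above its median in 56.1%, against 51.7 and 48.4%. The local background was above its floor of 1.69 fragments in 49.2%, against 55.2 and 59.5%.

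The sites were also more isolated. Another site of any class lay within 10 kb of 981 of the distal intergenic summits (23.7%), against 36.5% of the distal intragenic (difference -12.8 points, -14.6 to -10.9; Fisher's exact test, adjusted p = 2.00e-38) and 42.3% of all other sites. The median gap to the next summit was 42169 bp, against 17747 bp for the distal intragenic sites. Within the class, 3190 sites had no other member within 10 kb in their group and 92 groups had 3 or more members. Among the largest were 5 sites over 13761 bp near Ptpn11, with fold enrichments from 5.29 to 45.5, and 6 sites over 22882 bp near Uaca, from 6.12 to 9.51. The groups of 8 sites near Ezh2 and 6 near Pdia4, on chromosome 6, differed from these, since their background reached 11.4 and 17.8 fragments and their fold enrichment did not exceed 4.89.

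The strongest sites of the class were set against those of the list, of which the class made up 17.3%. Of the 100 sites of highest fold enrichment in the list, 10 were distal intergenic, and of the first 1000, 163 were, or 16.3%. The site of highest fold enrichment in the whole list was one of them, at chr5:28859276-28860455, 335960 bp upstream of Rnf32, a RING finger gene, and inside the antisense gene 9530036O11Rik. It had a pileup of 329 fragments and a fold enrichment of 123. The window of the summit had 2 exact half-sites but no DR4 with 2 mismatches or fewer. A DR4 was found in 3 of the 15 strongest distal intergenic sites, beside 13.7% of the class. Their fold enrichments ranged from 57.1 to 123.

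The sequence within 100 bp of this summit is shown beside that of the eighth strongest site, near the dopamine receptor gene Drd1, because both were strong without a DR4; capitals mark exact half-sites on either strand.
Rnf32, chr5:28859932-28860132, plus strand: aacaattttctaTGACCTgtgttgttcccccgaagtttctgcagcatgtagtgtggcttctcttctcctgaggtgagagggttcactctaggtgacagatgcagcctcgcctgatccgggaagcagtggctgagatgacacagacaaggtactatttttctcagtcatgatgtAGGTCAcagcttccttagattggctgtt
Drd1, chr13:53845872-53846072, plus strand: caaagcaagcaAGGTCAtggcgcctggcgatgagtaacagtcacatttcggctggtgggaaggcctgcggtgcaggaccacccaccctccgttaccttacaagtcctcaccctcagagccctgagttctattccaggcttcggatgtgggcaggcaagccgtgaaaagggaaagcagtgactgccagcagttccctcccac

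Next in order came a site at chr12:110372995-110373887, 73602 bp upstream of Ppp2r5c, a regulatory subunit of protein phosphatase 2A, with a fold enrichment of 104 and the CTCF motif in its window. A site 96561 bp upstream of Basp1, a growth-associated protein of nerve endings, was at 96.3. The site near Kcnt2 followed, 1585461 bp from the 5′ end of that gene. Sites near Mtcl1, a microtubule crosslinking factor, and Celf2, a neuronal regulator of splicing, were at 75.5 and 73.7, the latter inside the lincRNA gene Gm13211. The site nearest to Myom2, a protein of the sarcomere, was at 69.5 and lay 504908 bp from the 5′ end of that gene. The others were near Drd1 (64.8), Hs6st1, an enzyme of heparan sulfate synthesis (64.7), Tet2, an enzyme of DNA demethylation (61.9), Podxl, a sialomucin (58.7), Speer2 (57.7), Nup35 (57.4), 1810013L24Rik (57.3) and Acer2, a ceramidase (57.1). In all 15 the background was between 1.69 and 2.67 fragments. With the bodies and 5′ ends of all annotated genes, 4 of the 15 met the rule.

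Of 21938 protein-coding genes, 1862 were the nearest gene to at least 1 distal intergenic site, or 8.49%, and 5663 were nearest to any stretch of eligible sequence at all. Of the 1862 genes, 942 had 1 site, 195 had 5 or more and 20 had 10 or more. By interval, 1507 stretches between coding genes held a distal intergenic site, and the 244 with 5 or more held 45.7% of all members.

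The gene with the most sites was Vrk1, a nuclear kinase, with 25. All lay downstream of it, from 73.9 to 732 kb from its 5′ end on chromosome 12, in 13 groups. Their fold enrichment had a median of 9.32 and reached 53.2 in a site at chr12:106693614-106694435, inside the gene 4933406K04Rik. The gene at the other end of this stretch was 3110018I06Rik, and the interval of 1411 kb between them held 33 distal intergenic sites, the most of any. Pdcd6ip, an endosomal sorting gene, followed with 17 sites, in the interval of 1416 kb that ends at Arpp21 and held 24. Their fold enrichments had a median of 7.81 and reached 41.3.

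Brinp1, a neural gene inducible by BMP and retinoic acid, was nearest to 14 sites, each in a group of its own, 6 upstream and 8 downstream. A DR4 was present in 7 of these, beside 13.7% of the class. Such counts of single genes were not tested. The strongest of the 14, at 35.7 and 32.0, were 691 and 572 kb downstream and had none, while the site at chr4:68543442-68543805 had a DR4 without a mismatch and a fold enrichment of 5.97. Fam19a5, a secreted protein of neurons, had 13 sites, 10 of them upstream, with fold enrichments up to 48.0, and 0 with a DR4. Gm765 had 13 with a highest fold enrichment of 17.5. Abcc12, an ABC transporter, had 12 in 7 groups, 3 of them with a DR4, including those of highest fold enrichment, at 25.8 and 24.8. Mkln1, an intracellular kelch protein, had 12 within 200.3 kb upstream, 7 groups in only 0.170 Mb of eligible sequence. Of these sites 11 were inside the noncoding genes Lncpint and 2210408F21Rik, the one with the intact DR4 shown above was at 11.3, and the strongest, at 29.0, had a DR4 with mismatches. Cdh11, a cadherin, had 12 spread from 184.9 to 1520 kb, none above 12.2. Epha4, an ephrin receptor of axon guidance, had 12, up to 23.1, and Celf2 had 11, all upstream. Only sites scored 200 or more left between 1 (Gm765 and Cdh11) and 11 (Vrk1) for each of these 10 genes.

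**Figure D5:**
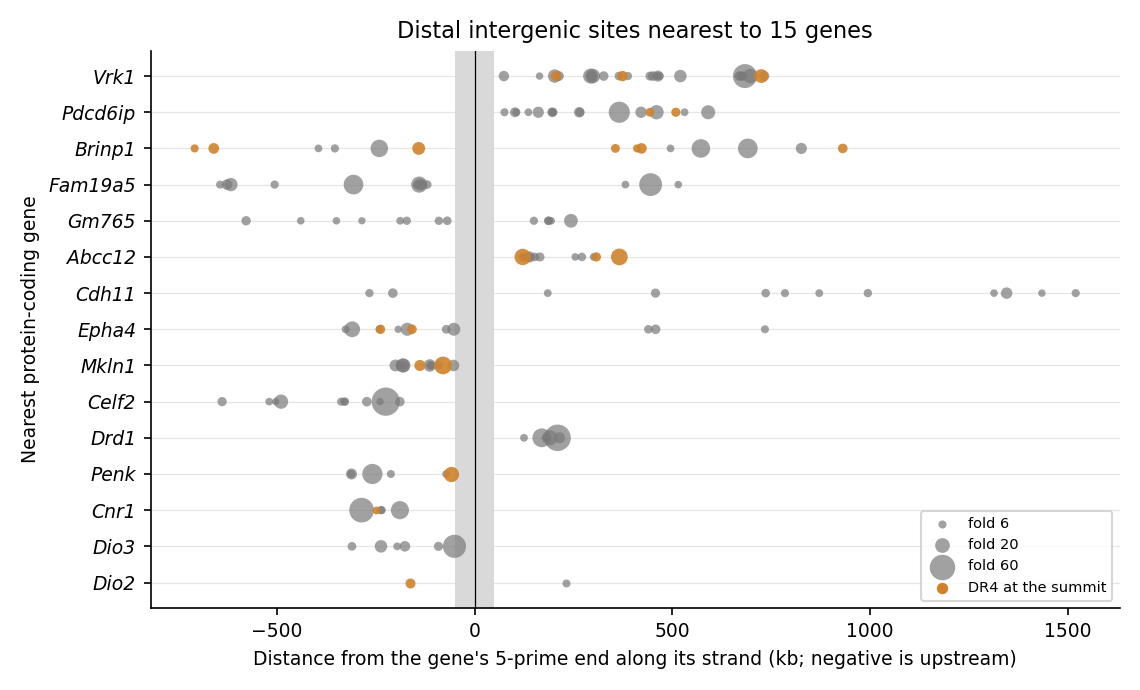
Distance of each distal intergenic site from the 5′ end of its nearest gene (x axis, kb along the strand of the gene, negative upstream) for 15 genes (y axis), of which the first 10 have the most sites; the area of a point is its fold enrichment, orange marks a DR4 at the summit, and grey shades the 50 kb that the rule leaves out. The 25 sites of Vrk1 lie on 1 side, and those of Drd1 lie between 124.8 and 214.7 kb downstream.

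Genes of striatal projection neurons were counted from lists written from general knowledge. Of 29 striatal signalling genes found in the annotation, 10 (34.5%) were nearest to at least 1 distal intergenic site, beside 8.49% of all protein-coding genes, with 38 sites in all. Of the 29, 15 had any eligible sequence, and of all genes with such sequence 32.9% were nearest to a site. Since such shares grow with the amount of distal sequence a gene has, the sites were also given per Mb of that sequence. This was 14.7 for the list (10.4 to 20.2), over 2.58 Mb, and 3.77 over all genes, over 1099 Mb. The density also falls with the distance from a 5′ end, as given above, and the lists were not matched for distance. Counting each group of sites once, the density was 12.8 for the list, beside 3.29 over all distal intergenic sequence. With sites scored 200 or more it was 6.58, beside 1.06. A DR4 was present in 2 of the 38, beside 13.7% of all distal intergenic sites. The median fold enrichment was 8.18.

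Drd1, the dopamine receptor of the direct pathway, was nearest to 6 sites, all downstream. In order along the chromosome their fold enrichments were 11.5, 64.8, 21.6, 6.32, 32.6 and 5.58, over distances from 214.7 to 124.8 kb. The sites at 64.8 and 21.6 were neighbours, and the one at 32.6 lay beyond a weak site. A DR4 was present in 0 of the 6, beside 13.7% of the class, a count too small to compare. Penk, which encodes the enkephalin precursor of the indirect pathway, had 6 sites, all upstream, at fold enrichments of 21.6, 5.75, 5.95, 37.6, 11.2 and 6.32 with growing distance, from 60.6 to 312.5 kb. The nearest of them, at chr4:4199206-4199846, had a DR4. Cnr1, the cannabinoid receptor CB1, had 5 upstream sites between 189 and 286 kb. Those at both ends were the strong ones, at 56.2 for the farthest and 30.5 for the nearest, and the others were at 5.58, 6.32 and 5.95.

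Arpp21, a phosphoprotein of medium spiny neurons, had 9 sites up to 17.9, and Oprm1, the mu opioid receptor, had 4 upstream, up to 16.8. Tac1, the precursor of substance P, had 3 sites between 7.13 and 8.55. Rgs4, a regulator of G protein signalling, had 2, and Pde7b and Strn had 1 each, of which that of Pde7b, a phosphodiesterase gene, was at 28.0.

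Of 29 striatal transcription factors, 11 (37.9%, beside 8.49% of all genes) were nearest to 36 sites. Of the 29, 20 had eligible sequence. The density was 4.95 per Mb (3.47 to 6.85), an interval that includes the 3.77 of all genes. Bcl11b, a determinant of medium spiny neurons also known as Ctip2, had 5 downstream sites, with fold enrichments of 5.43, 23.8, 24.4, 6.79 and 8.18 along the chromosome, the strong ones being neighbours. Mef2c had 8, of which the 5 downstream lay in the noncoding gene C130071C03Rik and reached 19.6. Bcl11a and Tshz1 had 5 each, Meis1 and Rarb 3, Dlx2 and Foxo1 2, and Ebf1, Meis2 and Sp8 1.

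For the adhesion and guidance genes the 2 measures parted. Of 40 genes 27 (67.5%, beside 8.49% of all genes) were nearest to a distal intergenic site, the highest share of the lists. Of the 40, 39 had eligible sequence, and of all genes with such sequence 32.9% were nearest to a site. The 105 sites of the list were spread over 50.0 Mb, at 2.10 per Mb (1.72 to 2.54), below the 3.77 of all genes. The density of the class fell from 5.53 per Mb at 50 to 100 kb to 1.72 beyond 1 Mb, and these sites were not matched for distance. Their median fold enrichment was 6.14, and 6 of the 105 had a DR4, beside 13.7% of the class. Cdh11 and Epha4 led the list, Flrt2 and Pcdh17 had 8 each, Cdh8 and Cdh10 7 each and Cdh7 6. Cdh4, Epha7, Pcdh10 and Slit2 had 4 each, of which a site of Cdh4, 62.5 kb upstream, had the highest fold enrichment of the list at 38.3. Cdh6 and Cdh9 had 3, and the other 14 genes had 1 or 2: Cdh2, Epha5, Nrxn3, Pcdh19, Pcdh9, Robo1, Robo2, Slitrk5, Slitrk6, Epha3, Lrrn3, Lrrtm4, Pcdh7 and Slitrk1.

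Of 24 genes of thyroid hormone action, 6 (25.0%, beside 8.49% of all genes) were nearest to 14 sites. Of the 24, 14 had eligible sequence. The density was 7.30 per Mb (3.99 to 12.3), beside 3.77 over all genes. Dio3, the deiodinase that inactivates thyroid hormones, had 6, all upstream, with fold enrichments from 5.58 to 49.5. The strongest was also the closest, 51.1 kb from its 5′ end at chr12:110227560-110228414, inside the gene Gm40576. Dio2, its activating counterpart, had 2, of which the one 164.7 kb upstream carried the intact DR4 shown above and the other, downstream, was at 5.95. Klf9, a well-known responder to T3, had 2 upstream sites at 10.5 and 12.04, both inside C330002G04Rik. Thrb and Nr1d2 had 1 each, at 5.33 and 5.58.

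Lists of other cells, which the labels do not include among the cells with the tagged receptor, were counted in the same way. Of 10 astrocyte genes 2 (20.0%, beside 8.49% of all genes) were nearest to 13 sites (10 for Sox9, up to 20.2, and 3 for Aqp4). Of the 10, 5 had eligible sequence. The density was 6.62 per Mb, beside 3.77 over all genes, but it is given without an interval and rests on 2 genes. Of 10 endothelial genes only Cdh5 was nearest to a site, with 1 (1.20 per Mb), and of 10 genes each of oligodendrocytes and microglia 0. Microglial genes had no eligible sequence at all, and those of oligodendrocytes 0.204 Mb, so that these counts carry little information. Among 20 regulators of other lineages, Sall1 had 5 sites, Foxa2 4 and Gata6 2, at 4.41 per Mb, and a site 159.9 kb upstream of Foxa2 reached 45.4.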

How the data were processed

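TRα1 ChIP-seq was performed by the authors on striatum crosslinked with disuccinimidyl glutarate and formaldehyde, with Accel-NGS 2S Plus libraries. The processing notes name mm10, which is GRCm38, Bowtie2 2.3.2.2 and MACS2 2.1.1.20160309.0. Peaks with a score below 60 had been removed. Whether the 2 ChIP libraries were pooled was not stated. The deposited pileup is a signal, the fragment coverage at the summit. The deposited fold enrichment divides this pileup by an estimated background, as a ratio. The deposited −log10 q and the score, 10 times it, come from MACS, and the score was used as a filter only. Values of single libraries and their depth were not used here. No column of other samples was used.

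The background was computed as pileup plus 1, divided by fold enrichment, minus 1. Summits were placed on GENCODE vM21 gene bodies and 5′ ends (21938 protein-coding of 55413 genes), and RefSeq sequence of GRCm38 was read around them, with lower case as repeat mask. Sequence nearest to each gene was measured on a grid of 1 kb. Shares were compared by two-sided Fisher's exact tests and exact McNemar tests at 0.05, with Benjamini-Hochberg adjustment within each family. Intervals of differences follow Newcombe. Named genes were those nearest to the 15 strongest sites, the 10 with the most sites, those at the 10 strongest intact DR4 elements and the members of 9 lists with a site, a few of which are not reported here. Genes named at the distance limit, at groups of sites, at starts of noncoding genes and at sites of high background fall outside this rule and were chosen after their values were seen. Gpr52 was not found as a protein-coding gene. Members, lists and tests were chosen with earlier results of these data known. The alternatives were other distances, annotation, scores, mismatch limits, windows, flanks, GC content and grouping. Those on the local background, and all of those for single genes and lists, were chosen after seeing the data. Tests were run in scipy 1.17.1, under Python 3.11.15, with tables in pandas 2.3.3 and numpy 2.4.6 and plots in matplotlib 3.10.9, and the scripts were tested on simulated data.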

Additional observations from a re-analysis of the deposited data

How the results depend on the processing

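Of 72 alternative values for the main results, 54 had the same call and sign as the main value or, without a test, stayed within 1.5 times it (the count of sites) or within its 95% interval (the density). The excess of the DR4 over the flank was among these under all 14 alternatives, between 2.73 and 24.02 points. The count of 4139 sites became 5024 with a limit of 30 kb, 2940 with 100 kb, 1441 with all annotated genes and 1150 with a score of at least 200. The density of 3.81 per Mb became 4.10 with a limit of 30 kb, 3.38 with 100 kb, 3.39 with all annotated genes, 1.06 with a score of at least 200 and 3.29 with groups counted once. With a score of at least 200, the DR4 difference was 2.65 points against all other sites (Fisher's exact test, p = 0.0268). It was -0.277 against distal intragenic sites and 6.52 between the highest and lowest quintile (Fisher's exact test, p = 0.0922 for the latter). The fold differences, taken at the median of the retained sites, turned to 0.0751 and 0.689. With at most 1 mismatch, the DR4 difference was -0.366 against all other sites and 1.21 between quintiles, and with at most 3 mismatches it was 2.56 against all other sites (exact p = 0.00209). Within 40 to 55% GC these differences were -1.59 against all other sites and -1.85 against distal intragenic sites. With a limit of 30 kb, the fold difference to distal intragenic sites was -1.48. The causes were not tested. Leaving out the 38 members with a local background above 10 left 4101 sites and changed no call. No paired analysis was possible because the peak list holds no value for a single library, and for the same reason no library could be left out. Of the 25 sites nearest to Vrk1, 13 remained with groups counted once and 11 with a score of at least 200.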

Other observations

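A small set of the distal intergenic sites stood apart by their local background. In 38 members the computed background was above 10 fragments, against a floor of 1.69 at which 50.8% of the members lay. Their fold enrichment ran from 1.70, the lowest of the class, to 15.1. The highest was 176 fragments, at chr12:3109727-3110249, nearest to Rab10, with a pileup of 520, a fold enrichment of 2.95 and a window that was 98.0% repeat-masked. A peak of 5945 bp at chr17:39842953-39848897, nearest to Esp38, had a background of 91.7 and a fold enrichment of 3.77, with 0% of its window masked. Of the 38, 5 were nearest to Sfi1 on chromosome 11, between positions 3100300 and 3125846, and 11 lay near Ezh2 or Pdia4 on chromosome 6. Distal intergenic sites made up 38 of the 92 sites with such a background in the whole list.

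Sites in repeats were a minority: the summit base was repeat-masked in 531 members (12.8%), against 10.2% of the distal intragenic sites, while 43.0% of the distal intergenic sequence was masked.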
